A study of Homo sapiens with 12 samples.

Results

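The fusion protein EWS-FLI1 was expressed in ARID1A-knockout HEK-293T, a cell line from human embryonic kidney, to which no ARID1A was returned. The comparison held 4 of the 12 libraries of the series: 2 of the knockout cells with EWS-FLI1 plus an empty vector in the place of ARID1A, and 2 of the same knockout cells with empty vector for both. The libraries were chosen by their labels, with earlier results of these data known. In the other 8 libraries the knockout cells had been given wild-type (WT) ARID1A or ARID1A lacking its segment IDR1b (ΔIDR1b), again with EWS-FLI1 or with empty vector, 2 libraries per group. PolyA RNA was sequenced 48 h after transfection, with 2 µg of EWS-FLI1 plasmid. All groups share the knockout. The labels do not say how many knockout clones were used or whether the repeats came from separate cultures. Nor do they give the share of the cells that took up the plasmid. The p-values thus measure the spread between repeat libraries, estimated over all 12, and this spread may be technical. The stated purpose of the series was the role of IDR1b in transcription driven by EWS-FLI1, and the knockout cells show what the fusion does with no ARID1A present.

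EWS-FLI1 joins the N-terminal, disordered part of EWSR1, an RNA-binding protein of the FET family, to the DNA-binding ETS domain of FLI1, and it drives most Ewing sarcomas. The ETS domain binds the core letters GGAA. At repeats of GGAA the fusion is known to recruit the SWI/SNF (BAF) chromatin remodelling complex and to open silent chromatin, while at single sites it can displace other ETS factors. ARID1A is the large DNA-binding subunit of canonical BAF, and ARID1B is its paralogue. 293T cells are not a Ewing sarcoma cell type, so many tumour target genes lie in closed chromatin in them.

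The 4 libraries held 11702251 to 13845881 counts, fragments assigned to genes, and the 12 libraries 11702251 to 14445379. Levels are given in CPM, a gene's counts relative to the library total, the totals being adjusted by TMM factors (trimmed mean of M-values). A gene with no count in a library could lie at up to 3 counts, which is 0.223 to 0.259 CPM in these 4, and such floors cover counting error only. Of 12 marker genes of 293T cells, 11 were detected and NEFM was at 0 in all 4 libraries. The summed marker level was 1126 and 1161 CPM with empty vector and 1038 and 1105 CPM with EWS-FLI1. All 3 endothelial markers and 4 of 5 leukocyte markers stayed under 1 CPM, and the collagen gene COL1A1 was at 74.8 to 79.5 CPM with COL1A2 at 0. Counts of the mitochondrial genome made up 1.97 to 2.33% of each library. The first principal component of the 4 libraries held 38.2% of the variance, little more than the second (31.7%) and the third (30.2%). It set both EWS-FLI1 libraries (24.5 and 28.2) apart from the empty vector libraries (-5.86 and -46.8), which lay far from each other. The second component held both repeat 1 libraries on 1 side and both repeat 2 libraries on the other. Repeat 1 stood at 29.6 with empty vector and 22.5 with EWS-FLI1, and repeat 2 at -14.5 and -37.6. Over 10695 genes the differences between repeats 1 and 2 in these groups correlated at only -0.04. No shared repeat effect is therefore read from this component.

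The introduced and deleted genes were examined first. FLI1 had no count in either empty vector library and stood at 1830 and 1688 CPM with EWS-FLI1. Its 41008 counts against a floor of 3 over both empty vector libraries make it at least 15733-fold higher. EWSR1 was at 528 and 531 CPM with empty vector and at 2110 and 1976 CPM with EWS-FLI1, a log2 difference of 1.95 ± 0.09 (SE) in edgeR's quasi-likelihood test (Benjamini-Hochberg adjusted p = 2.06e-17). In the EWS-FLI1 libraries the counts of both genes include the plasmid, so changes in the cells' own FLI1 or EWSR1 cannot be read. The empty vector values are those of the cells' own genes. The EWSR1 level with EWS-FLI1 can hold both sources, so FLI1 is used below for the amount of the fusion. ARID1A was at 165 and 147 CPM with empty vector and at 162 and 157 CPM with EWS-FLI1, a log2 difference of 0.03 ± 0.10 (adjusted p = 1). Transcript of the knocked-out gene was thus still counted in both groups, whose libraries overlapped, and this does not show whether protein was made. The libraries that received an ARID1A plasmid held 1843 to 2878 CPM of ARID1A.

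The amount of fusion differed between the ARID1A states. FLI1 stood at 3675 and 3462 CPM in the EWS-FLI1 libraries with WT ARID1A and at 1888 and 1906 CPM in those with ΔIDR1b. Without ARID1A it was thus below both other groups, far below WT and close below ΔIDR1b. The part of this gap in the differences between states given further on was not tested.

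Few genes were called with EWS-FLI1 in the cells without ARID1A. Of 20377 genes tested, 9 passed an adjusted p of 0.05 (0.0442% of the genes), 8 higher (0.0393%) and 1 lower (0.00491%). Beside the genes of the fusion itself, the genes called higher were SGK1, KLF2, LRRC4, LINC00659 and THBD, and the gene called lower was HSPA6. An unadjusted p under 0.05 was reached by 643 genes (3.16%), 363 of them higher (1.78%) and 280 lower (1.37%). The median log2 difference over all genes was -0.003. Among the 10606 genes with a mean of at least 10 CPM, the middle 50% of differences lay between -0.09 and 0.06, against a median standard error of 0.13. Of these 10606 genes, 6 differed by at least 1 on the log2 scale: FLI1, EWSR1, the EWSR1-like pseudogene described next, SGK1, KLF2 and HLA-H.

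HLA-H, an HLA class I pseudogene chosen here after its value was seen, was not called. It was at 7.29 and 27.9 CPM with empty vector and at 5.29 and 7.78 CPM with EWS-FLI1. The groups overlapped, and the second empty vector library stood far above the other 3. It was called in 6 of the 22 alternative settings.

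The number of called genes depended on single libraries. Without the second EWS-FLI1 library of these cells it was 5, and without either of the 2 libraries of WT ARID1A with EWS-FLI1, which enter the fit through the shared estimate of spread, it was 15. It was 16 when only the 4 libraries were fitted (8 higher, 8 lower), 16 with no filter on low counts (10 higher, 6 lower), and 17 (11 higher, 6 lower) when the repeat number was a block nested in each vector. FLI1, EWSR1, the pseudogene and SGK1 were called in every one of the 22 alternative settings. The scatter between repeats, as the chi-square of their counts per degree of freedom, was 12.1 for WT ARID1A with EWS-FLI1. Without ARID1A it was 3.87 with empty vector and 3.02 with EWS-FLI1, and in the remaining groups it was 4.20 to 6.13. The part of this scatter in the numbers of called genes was not tested.

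**Figure D1:**
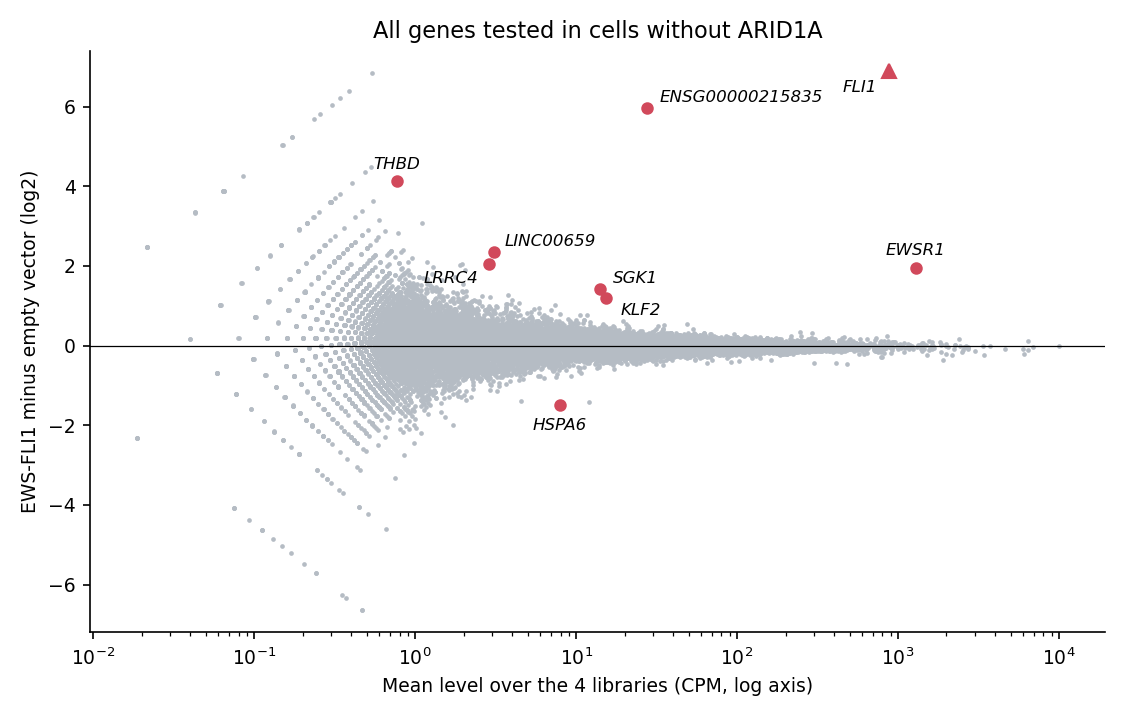
Mean level over the 4 libraries (CPM, log axis) against the log2 difference between EWS-FLI1 and empty vector in cells without ARID1A, 1 grey point per gene tested and red points for the 9 called genes; the triangle marks FLI1, which lies beyond the axis, and 5 genes at 0 in all 4 libraries are not drawn. Above 10 CPM nearly all points lie close to 0, and HSPA6 is the called gene below 0.

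ENSG00000215835 is listed at chromosome 1, 166275629 to 166277597 on the minus strand (GRCh38). Its level was 0.818 and 0.897 CPM with empty vector and 52.3 and 56.2 CPM with EWS-FLI1. The EWS-FLI1 libraries lay far above both others, a log2 difference of 5.97 ± 0.25 (adjusted p = 1.77e-18). Its transcript of 1969 bases aligned over its whole length to an EWSR1 transcript with 96.2% identity, so fragments of the plasmid can be counted there and the value is uncertain as a measure of a cellular transcript.

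SGK1, the serum- and glucocorticoid-induced kinase that keeps the epithelial sodium channel at the cell surface, was the cellular gene called in all 22 alternative settings. It was at 7.43 and 7.93 CPM with empty vector and at 20.3 and 20.8 CPM with EWS-FLI1. The groups were well apart and the libraries within each close together, at means of 7.68 ± 0.35 and 20.6 ± 0.38 CPM (SD, n = 2 libraries each). The rise was 2.67-fold, a log2 difference of 1.42 ± 0.20 (adjusted p = 1.9e-04). The gene lies on chromosome 6, 134169248 to 134318112, minus strand.

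KLF2, a zinc finger transcription factor of the Krüppel-like family best known from endothelium, was at 9.81 and 8.75 CPM with empty vector and at 18.7 and 23.9 CPM with EWS-FLI1. Both EWS-FLI1 libraries lay above both others, the second one highest. The rise was 2.29-fold, a log2 difference of 1.20 ± 0.20 (adjusted p = 0.00246). The call was lost without the second library of either group, with adjusted p = 0.154 and 0.394 out of a range of 5.48e-07 to 0.394 over the alternatives. The endothelial markers PECAM1, CDH5 and VWF were at 0 to 0.449 CPM in all 4 libraries.

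LRRC4, a synaptic adhesion protein that binds netrin-G2, was near the limit of detection with empty vector, at 0.595 and 1.65 CPM (8 and 22 counts). It was at 5.03 and 4.23 CPM with EWS-FLI1. The groups did not overlap, and the rise was 4.11-fold, a log2 difference of 2.04 ± 0.35 (adjusted p = 0.00566). Without the first empty vector library the rise was 2.81-fold, and without the second 7.68-fold. The call was lost with only the 4 libraries fitted (adjusted p = 0.0576, and 0.0646 with the repeat number as a block). It was also lost without the first empty vector library and without the first EWS-FLI1 library. It held in 18 of the 22 alternative settings.

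LINC00659, a long noncoding RNA gene on chromosome 20 (62772980 to 62776996, minus strand), was at 0.52 and 1.496 CPM with empty vector and at 3.41 and 6.91 CPM with EWS-FLI1. The groups did not overlap, but the EWS-FLI1 libraries were unequal. The rise was 5.08-fold, a log2 difference of 2.35 ± 0.42 (adjusted p = 0.00684). Without the second EWS-FLI1 library the rise was 3.36-fold and the adjusted p 1, without the first empty vector library 3.43-fold and 0.519, and without the second empty vector library 9.75-fold and 0.00484 (range over the alternatives 3.25e-07 to 1).

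THBD encodes thrombomodulin, the cell-surface receptor that turns thrombin from a clotting into an anticoagulant enzyme. It had 1 count in each empty vector library (0.0743 and 0.0748 CPM) and was at 0.852 and 2.07 CPM with EWS-FLI1. Of its 34 counts with EWS-FLI1, 24 were in the second library. The 2 counts against 34 give a ratio of 19.6 with an exact 95% counting interval of 5.02 to 168. The edgeR call (adjusted p = 0.00715) was lost with DESeq2 (0.407) and with only the 4 libraries fitted (0.103, and 0.171 with the repeat number as a block). It was also lost on leaving out either empty vector library or the second EWS-FLI1 library. A filter at a mean of 1 CPM removed the gene. The call held in 15 of the 22 alternative settings.

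HSPA6, a strictly stress-inducible member of the HSP70 chaperone family, was the gene called lower. It was at 11.2 and 12.3 CPM with empty vector and at 4.26 and 4.06 CPM with EWS-FLI1. Both EWS-FLI1 libraries were below both others and close to each other, with means of 11.7 ± 0.73 and 4.16 ± 0.14 CPM (SD, n = 2). The log2 difference was -1.49 ± 0.23 (adjusted p = 0.00109), and the adjusted p was 0.086 without the second EWS-FLI1 library (range 4.51e-06 to 0.086).

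**Figure D2:**
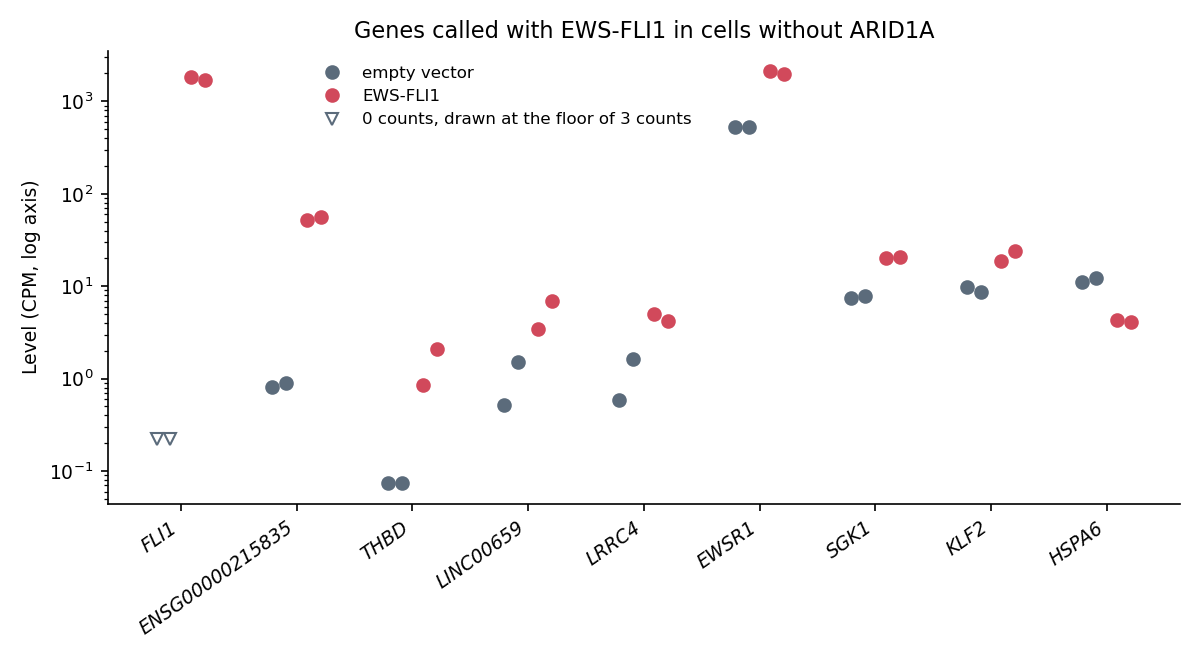
Level (CPM, log axis) of the 9 called genes in each of the 4 libraries without ARID1A, grey for empty vector and red for EWS-FLI1, with open triangles for libraries at 0 counts drawn at the floor of 3 counts. In all 9 genes both red points lie on 1 side of both grey points, above them in 8 genes and below them in HSPA6.

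The letters of the fusion's binding core were looked up in the promoters of the called cellular genes (RefSeq, GRCh38.p14, from 250 bases before to 50 after each annotated start). Of the 6 genes, 5 had a promoter in the table. The motif GGAA was sought on both strands, and 95.5% of 35116 promoters of this length hold it at least once. The LRRC4 and KLF2 promoters held it 1 time each, the 3 SGK1 promoters 3, 2 and 0 times, and that of HSPA6, the gene called lower, 4 times. LINC00659 held it 9 times, a number reached by 1.63% of promoters. Its promoter (chr20:62776807-62777106, minus strand) and that of HSPA6 (chr1:161524290-161524589, plus strand) are printed 5′ to 3′, the first for this run of GGAA and the second for its heat-shock element. Capitals mark GGAA or its complement TTCC in LINC00659, and in HSPA6 the heat-shock element, the blocks TTC, GAA and TTC with 2 free bases between each.

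LINC00659: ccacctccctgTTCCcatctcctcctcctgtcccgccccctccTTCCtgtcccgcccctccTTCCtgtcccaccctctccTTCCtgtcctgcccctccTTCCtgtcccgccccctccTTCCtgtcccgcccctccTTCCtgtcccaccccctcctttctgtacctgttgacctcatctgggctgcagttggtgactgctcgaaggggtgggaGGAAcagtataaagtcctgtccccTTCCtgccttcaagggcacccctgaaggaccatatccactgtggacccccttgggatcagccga
HSPA6: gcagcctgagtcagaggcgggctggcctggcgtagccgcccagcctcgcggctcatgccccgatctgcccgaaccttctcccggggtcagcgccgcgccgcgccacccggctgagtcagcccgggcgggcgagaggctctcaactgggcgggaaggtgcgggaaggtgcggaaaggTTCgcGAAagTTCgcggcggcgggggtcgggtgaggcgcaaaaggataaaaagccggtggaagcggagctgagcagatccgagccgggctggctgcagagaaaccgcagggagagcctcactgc

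In LINC00659 the letters stand 8 times as TTCC and 1 time as GGAA on the printed strand, and the tandem form GGAAGGAA, held by 3.67% of promoters, was not in this window. This pattern of the heat-shock factor HSF1, sought on both strands, occurs 1 time in the HSPA6 promoter and in 0.49% of all promoters. These matches describe letters only, and no binding was measured.

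The genes next in order of unadjusted p were not called and are given by their values. On the higher side GDF6, a ligand of the bone morphogenetic protein family, was at 0.892 and 0.598 CPM with empty vector and at 2.30 and 3.98 CPM with EWS-FLI1 (log2 2.06 ± 0.43, adjusted p = 0.0634). PHOSPHO1, a phosphatase of bone mineralization, was at 0.297 and 1.20 CPM against 2.64 and 3.46 CPM (log2 2.02 ± 0.43, adjusted p = 0.0787). DLL4, a Notch ligand, was at 2.08 and 2.32 CPM against 6.05 and 4.67 CPM (log2 1.28, adjusted p = 0.198). The other 7 were KDM7A-DT, FTH1P16, RND1, IER2, GADD45B, ZNF823 and PRICKLE1, with adjusted p from 0.319 to 0.974 and no overlap between groups, as the rule for naming them required. For IER2, 52.2% of the exon length is also exon of another gene, and for PRICKLE1 23.7%, so their counts are uncertain.

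On the lower side SLIT2, a secreted axon guidance ligand, was at 468 and 480.2 CPM with empty vector and at 352 and 353 CPM with EWS-FLI1 (log2 -0.43 ± 0.10, adjusted p = 0.18). CCN1, a matricellular protein and YAP target, was at 354 and 341 CPM against 270.4 and 245 CPM (log2 -0.43 ± 0.10, adjusted p = 0.319). RHOB, an immediate early small GTPase, was at 2231 and 2073 CPM against 1720.5 and 1631 CPM (log2 -0.36, adjusted p = 0.87). In these 3 genes both EWS-FLI1 libraries were below both others. SLIT2 was called in 8 of the 22 alternative settings, CCN1 and RHOB in 7 each, and GDF6 and PHOSPHO1 in 6 each. With the repeat number as a block in each vector these 5 genes were called, at adjusted p of 0.00275 for SLIT2, 0.00457 for CCN1, 0.0214 for RHOB, 0.0128 for GDF6 and 0.00651 for PHOSPHO1, and so was IER2 (0.0137). The highest adjusted p over the alternatives was 1 for each of these 6 genes. NPIPB3, a member of a multigene family whose counts are uncertain, was at 5.50 and 7.70 CPM against 2.73 and 2.33 CPM (log2 -1.38, adjusted p = 0.436). The other genes in this group of 10 were PCDH7, ARSB, TENM1, HS3ST3A1, ATF3 and HSPH1, with log2 differences from -0.69 for ARSB to -0.29 for ATF3.

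Gene groups were described by how many members were called and by how many had both EWS-FLI1 libraries on 1 side of both empty vector libraries. Of all genes tested, 16.8% lay wholly above and 18.6% wholly below, so shares near these are no result about a group. The 18 lists held 401 genes apart from FLI1, EWSR1 and ARID1A, of which 373 were tested and 5 called: HSPA6, KLF2, SGK1, LRRC4 and THBD. In the 13 lists with no call, edgeR gave 18 of 269 tested members an unadjusted p under 0.05 (6.69%, against 3.16% of all genes), 5 higher and 13 lower, and DESeq2 called 0. Several lists were drawn up around genes already known to respond in these data.

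Heat-shock and chaperone genes encode the proteins that fold or refold other proteins, and HSF1 drives the inducible ones. Of 36 listed, 34 were tested, HSPA6 was called lower and none was called higher. Wholly below lay 17 of the 34 (50%) and wholly above 0. A negative difference was seen in 30, with a median of -0.08. The list was chosen with earlier results of these data known. With WT ARID1A 9 of its members were called, and with ΔIDR1b 7. The shares without ARID1A thus describe the list and are no independent support for a fall. The inducible HSPA1B was at 537 and 584 CPM with empty vector and at 421 and 396 CPM with EWS-FLI1 (log2 -0.46 ± 0.16, adjusted p = 1). HSPA1A and HSPA1B are near-identical copies, and 36.6% of the HSPA1B exon length overlaps another gene, so the division of counts between them is uncertain. HSPH1, an HSP110 nucleotide exchange factor, was at 169 and 194 CPM against 152 and 129.96 CPM (log2 -0.36 ± 0.11, adjusted p = 1). HSPA5, the HSP70 of the endoplasmic reticulum, was at 2089 and 2204 CPM against 1882 and 1811 CPM (log2 -0.22, adjusted p = 1). In these 3 genes the groups did not overlap. HSPA1B was called in 4 of the 22 alternative settings, among them the block in each vector (adjusted p = 0.0214) and the fit of the 4 libraries alone (1.09e-04), and HSPH1 in 1, with length and GC trends removed (0.0337). The highest adjusted p over the alternatives was 1 for both. At an unadjusted p under 0.05, 5 of the 34 genes were lower and 0 higher.

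**Figure D3:**
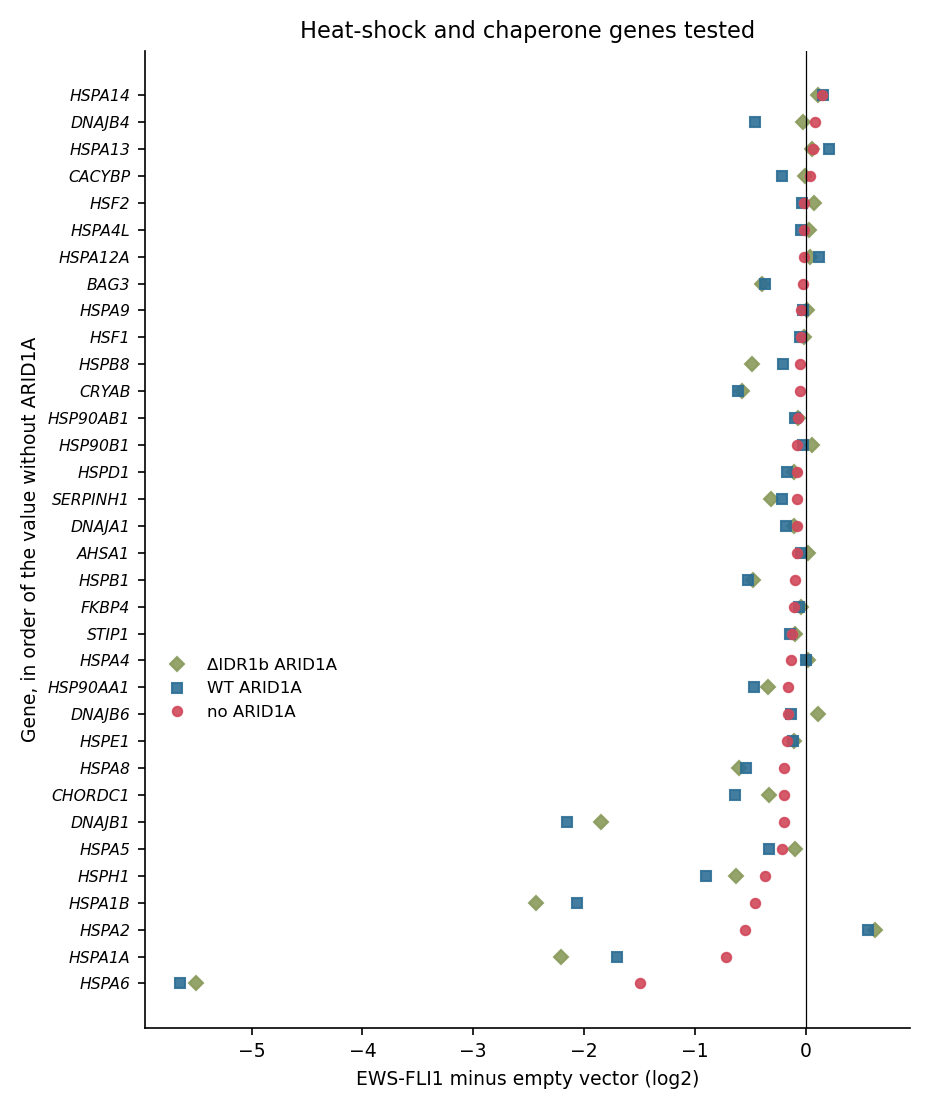
Log2 difference between EWS-FLI1 and empty vector for the 34 tested heat-shock and chaperone genes, 1 row per gene, red circles without ARID1A, blue squares with WT ARID1A and green diamonds with ΔIDR1b. Without ARID1A 30 of the 34 circles lie below 0, most of them close to it, while HSPA6, HSPA1B and DNAJB1 lie further below 0 in the other states.

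The genes that EWS-FLI1 is reported to activate in Ewing sarcoma, such as NR0B1, NKX2-2, GLI1 and STEAP1, gave no call. Of 38 listed, 30 were tested, 8 lay wholly above, 4 wholly below, and the median was 0.06. The smallest unadjusted p values belonged to genes with negative differences. HOXD13, a homeobox factor of limb patterning, was at 157 and 153 CPM with empty vector and at 126 and 122 CPM with EWS-FLI1 (log2 -0.32, adjusted p = 1). SOX2, a stem cell factor, was at 6.32 and 6.36 CPM against 5.03 and 2.94 CPM (log2 -0.67, adjusted p = 1). Of 20 genes reported as repressed by the fusion, 19 were tested, none was called, 6 lay wholly below and 4 wholly above, with a median of -0.10. IGFBP5, a binding protein of insulin-like growth factors, was at 24.9 and 23.3 CPM against 17.7 and 17.0 CPM (log2 -0.47, adjusted p = 1).

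ERK feedback and immediate early genes answer growth factor signalling within minutes and are regulated in part by ETS factors. Of 40 listed, 39 were tested and KLF2 was called. Of the rest, ATF3, a stress-induced factor, was at 904 and 816 CPM with empty vector and at 671 and 735 CPM with EWS-FLI1 (log2 -0.29, adjusted p = 1). IER2 was at 45.2 and 34.4 CPM against 56.4 and 59.2 CPM (log2 0.54, adjusted p = 0.727). With 11 wholly above, 13 wholly below and a median of -0.06, the group had no common direction. Among 26 other ETS family factors, 20 were tested and none was called, with ETV3 at 58.8 and 53.2 CPM against 65.5 and 73.5 CPM (log2 0.31, adjusted p = 1).

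SWI/SNF subunit genes were examined because the missing ARID1A belongs to that complex. All 27 besides ARID1A were tested and none was called, with 4 wholly above, 4 wholly below and a median of 0.00. DPF3, a tissue-restricted BAF subunit, had the smallest unadjusted p, at 6.17 and 8.23 CPM with empty vector and 13.5 and 8.55 CPM with EWS-FLI1 (log2 0.61, adjusted p = 1). TAF15, an RNA-binding protein of the FET family, was not called, at 182 and 161 CPM against 202 and 185 CPM (log2 0.17, adjusted p = 1).

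The lists around the called genes gave few further members. SGK1 was called among 17 tested genes of the sodium channel and the glucocorticoid response. SCNN1G, the gamma subunit of that channel, was at 0 counts in 3 libraries and at 0.605 CPM in the second EWS-FLI1 library. THBD was called among 16 tested regulators of coagulation, in which F2RL1, a protease-activated receptor, was at 22.4 and 25.5 CPM against 20.8 and 20.6 CPM (log2 -0.21, adjusted p = 1). LRRC4 was called among 7 tested neuronal receptor genes, a list drawn up around LRRC4 and NTSR1. Of the 7 genes, 4 lay wholly above, LRRC4 among them, and 0 below. Another of these 4 was NTSR1, the neurotensin receptor gene, which lies near LINC00659 on chromosome 20. It was at 0.372 and 0.673 CPM against 1.62 and 1.30 CPM (log2 1.47 ± 0.61, adjusted p = 1). PTGS2, the inducible cyclooxygenase of prostaglandin synthesis, was among 16 tested genes of its pathway, none of them called.

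No call was made in the lists of YAP and TEAD genes (21 tested), ATF4 stress response genes (24), unfolded protein response genes (19), interferon-stimulated genes (28), p53 target genes (24), cyclins and cell cycle inhibitors (23) or cholesterol synthesis genes (23). Of the ATF4 genes, 12 of 24 (50%) lay wholly above and 3 below, with a median of 0.06. ATF3, given above, had the smallest unadjusted p of the list and a negative difference (log2 -0.29). TRIB3, a pseudokinase induced by ATF4, was at 15.4 and 15.3 CPM against 18.9 and 21.3 CPM (log2 0.39, adjusted p = 1). Of the unfolded protein response genes 8 lay wholly below and 3 above (median -0.03), with ERN1, the stress sensor IRE1, at 35.8 and 34.2 CPM against 27.5 and 30.2 CPM (log2 -0.28, adjusted p = 1). Of the interferon genes 9 lay below and 5 above, with a median of -0.06, or -0.03 with genes at no count in a group put at their bound. OASL, an interferon-induced antiviral protein, was at 33.2 and 34.8 CPM against 26.1 and 25.6 CPM (log2 -0.39, adjusted p = 1). Of the cholesterol genes 8 lay below and 1 above (median -0.06). CDKN2D, a cell cycle inhibitor, was at 12.7 and 12.4 CPM against 18.2 and 16.7 CPM (log2 0.47, adjusted p = 1). TEAD2 (log2 -0.33) and PLK3 (log2 -0.48) had the smallest unadjusted p of the genes not already named in the YAP and p53 lists, both with an adjusted p of 1.

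The effect of EWS-FLI1 without ARID1A was then set against its effect with ARID1A, by the interaction, the difference between the 2 effects in 1 model. With WT ARID1A 45 genes were called (0.221%), 31 higher (0.152%) and 14 lower (0.0687%), and with ΔIDR1b 35 (0.172%), 25 higher (0.123%) and 10 lower (0.0491%). A larger number of calls is no test of a difference. The interaction with WT called 5 genes (0.0245%), and that with ΔIDR1b 4 (0.0196%). The first count was 16 with the repeat number as a block in each vector, 48 without the first WT library with EWS-FLI1 and 8 without the first empty vector library of the cells without ARID1A. HSPA6, DNAJB1, HSPA1B and PTGS2 were in both sets, and EWSR1, which carries plasmid counts, was in the first.

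HSPA6 differed most between the states. In the WT cells it was at 21.4 and 25.03 CPM with empty vector and at 0.226 and 0.682 CPM with EWS-FLI1, and with ΔIDR1b at 26.2 and 22.3 CPM against 0.566 and 0.487 CPM. With either form of ARID1A it was thus above the cells without ARID1A when empty vector was given and below them when EWS-FLI1 was given. The effect was -5.65 ± 0.31 with WT and -5.50 ± 0.30 with ΔIDR1b, against -1.49 ± 0.23 without ARID1A. The difference between effects was -4.15 ± 0.43 for WT (adjusted p = 3.22e-07) and -4.01 ± 0.41 for ΔIDR1b (adjusted p = 2.97e-07).

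DNAJB1, the J-domain co-chaperone that hands clients to HSP70, was at 239.6 and 236 CPM with empty vector and at 220.1 and 194 CPM with EWS-FLI1 without ARID1A. These groups did not overlap but the difference of -0.20 ± 0.11 was not called (adjusted p = 1). With WT ARID1A it was at 342 and 292 CPM against 69.1 and 73.5 CPM, and with ΔIDR1b at 182 and 214 CPM against 50.8 and 59.6 CPM. The difference between effects was -1.95 ± 0.16 for WT (adjusted p = 7.69e-10) and -1.64 ± 0.16 for ΔIDR1b (adjusted p = 8.54e-08). The empty vector levels of DNAJB1 in ΔIDR1b were below those without ARID1A, unlike those of HSPA6.

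HSPA1B was at 869 and 732 CPM with empty vector and at 192 and 191 CPM with EWS-FLI1 in WT cells, and at 634 and 689 CPM against 78.4 and 166 CPM with ΔIDR1b. The difference between effects was -1.61 ± 0.23 for WT (adjusted p = 2.6e-04) and -1.98 ± 0.23 for ΔIDR1b (adjusted p = 3.2e-06). Both calls were lost with DESeq2, at adjusted p of 1 and 0.0742, the highest values over the alternatives. Its near-identical copy HSPA1A, called with either form of ARID1A, was at 9.29 and 9.72 CPM against 5.71 and 5.79 CPM without ARID1A, and neither of its interactions was called.

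PTGS2 went the other way. Without ARID1A it was at 29.4 and 25.4 CPM with empty vector and at 34.3 and 32.1 CPM with EWS-FLI1, a difference of 0.27 ± 0.14 (adjusted p = 1). With WT ARID1A it was at 28.3 and 26.9 CPM against 87.4 and 71.4 CPM, and with ΔIDR1b at 13.1 and 15.7 CPM against 46.5 and 42.8 CPM. The difference between effects was 1.25 ± 0.20 for WT (adjusted p = 0.00145) and 1.36 ± 0.20 for ΔIDR1b (adjusted p = 7.03e-04).

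The interaction of EWSR1 was 0.82 ± 0.12 for WT (adjusted p = 6.17e-04) and 0.46 ± 0.12 for ΔIDR1b (adjusted p = 1). EWSR1 stood at 495 and 559 CPM with empty vector and at 3728 and 3462 CPM with EWS-FLI1 in WT cells. With ΔIDR1b it was at 392 and 386 CPM against 2044 and 2073 CPM. Its level with EWS-FLI1 was thus highest with WT, while its level with empty vector was lowest with ΔIDR1b.

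For the other called genes no interaction passed the test. The log2 effect on SGK1 was 1.42 ± 0.20 without ARID1A, 1.63 ± 0.19 with WT and 1.72 ± 0.21 with ΔIDR1b. That on LINC00659 was 2.35 ± 0.42, 3.83 ± 0.36 and 3.10 ± 0.35. That on KLF2 was 1.20 ± 0.20, 1.67 ± 0.18 and 0.72 ± 0.19. Their interactions with an adjusted p of 1 do not show that the effects were equal, since the standard errors of these differences ran from 0.27 for KLF2 to 0.60 for LINC00659. The log2 effect on LRRC4 was 2.04 ± 0.35 without ARID1A, 2.53 ± 0.30 with WT and 1.86 ± 0.27 with ΔIDR1b. That on THBD was 4.13 ± 0.74, from 2 counts with empty vector, 3.72 ± 0.39 and 2.98 ± 0.40. The standard errors of the THBD interactions were 0.82 for WT and 0.95 for ΔIDR1b. THBD reached 11.1 and 11.7 CPM with WT and 6.72 and 5.98 CPM with ΔIDR1b. Its level with EWS-FLI1, unlike its log2 effect, was thus lowest without ARID1A, as was its level with empty vector.

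**Figure D4:**
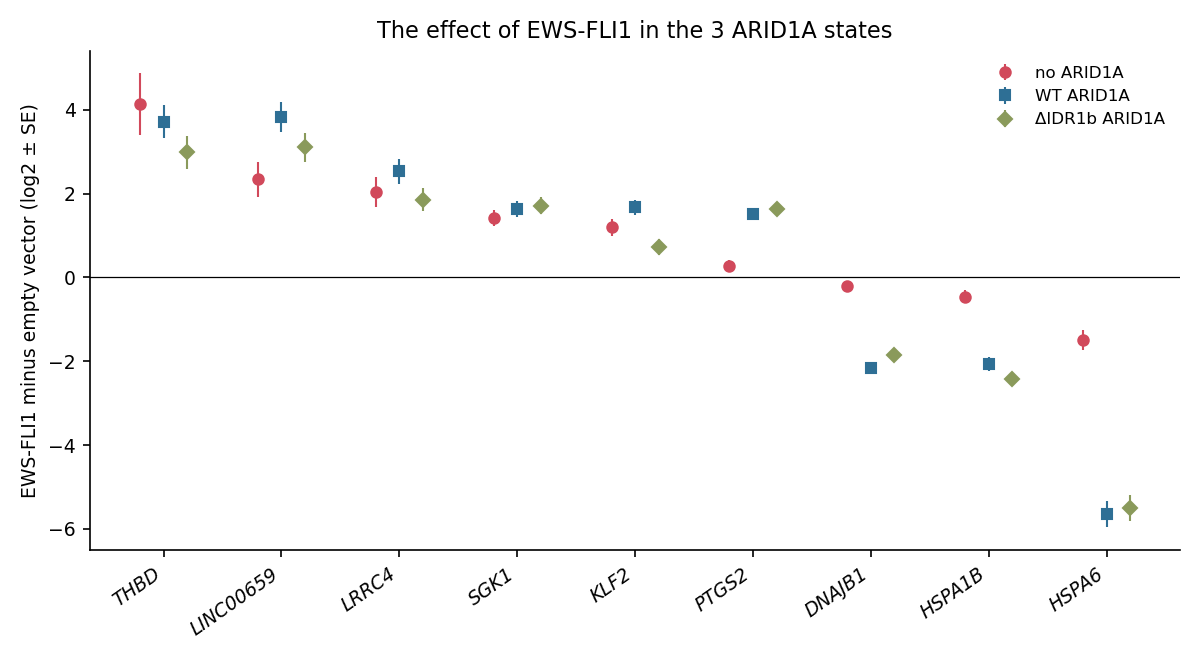
Log2 difference between EWS-FLI1 and empty vector, with its standard error, in the 3 ARID1A states for the 6 called cellular genes and for PTGS2, DNAJB1 and HSPA1B. The red circles, without ARID1A, lie near the other symbols for SGK1 and LRRC4. They lie nearest to 0 for SGK1, LINC00659, PTGS2, DNAJB1, HSPA1B and HSPA6, and no interaction was called for SGK1 or LINC00659.

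The genes called in the other states were then read in the cells without ARID1A, whose 4 libraries took no part in those contrasts other than through the shared spread. Of all genes tested without ARID1A, 16.8% lay wholly above their empty vector libraries and 18.6% wholly below, and 0.0442% were called. These shares stand beside all the counts below. Leaving out FLI1, EWSR1 and the pseudogene, 28 genes were called higher with WT ARID1A. Without ARID1A 26 of them had a positive difference, 22 lay wholly above their empty vector libraries, 0 wholly below, and 5 were called. Their median was 0.53 without ARID1A, 0.94 with ΔIDR1b and 1.30 with WT, the last being inflated by the choice. Of the 28, 21 had a smaller difference without ARID1A than with ΔIDR1b, a state that also took no part in the choice.

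Of the 14 genes called lower with WT, 13 had a negative difference without ARID1A, 11 lay wholly below, 0 wholly above, and 1 was called. The median was -0.20 without ARID1A and -0.49 with ΔIDR1b, and 13 were nearer to 0, or above it, without ARID1A. Of these 14 genes, 9 are heat-shock and chaperone genes. The exception in sign was AHSA2P, at 108 and 137 CPM against 127 and 136 CPM (log2 0.11).

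Starting from ΔIDR1b gave like counts. Of 22 genes called higher there, all 22 had a positive difference without ARID1A, 18 lay wholly above, and 4 were called. Of 10 called lower, 9 had a negative difference, 8 lay wholly below, and 1 was called. The median of the 22 was 0.58 without ARID1A against 1.58 with WT, and 19 had a smaller difference without ARID1A. That of the 10 was -0.40 against -1.04. FLI1 was higher in the WT libraries with EWS-FLI1 than in the other states, as given above, and the part of that gap in the second comparison was not tested.

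Members of the group called higher with WT covered the whole span of values without ARID1A. EPHB3, an ephrin receptor, was at 9.44 and 8.08 CPM with empty vector and at 12.6 and 14.9 CPM with EWS-FLI1 (log2 0.65 ± 0.20, adjusted p = 1). RND1, a small GTPase, was at 4.68 and 3.36 CPM against 8.69 and 6.91 CPM (log2 0.95 ± 0.25, adjusted p = 0.659). JUNB, a subunit of AP-1, was at 233 and 200.5 CPM against 271 and 273 CPM (log2 0.33 ± 0.13, adjusted p = 1). At the low end RUBCNL, an autophagy gene, was at 10.6 and 12.2 CPM against 11.8 and 11.7 CPM (log2 0.04 ± 0.20, adjusted p = 1), where its effect was 0.99 with WT and 0.91 with ΔIDR1b. APOLD1 (log2 -0.05) and ENSG00000231393 (log2 -0.13) were the members with a negative difference. EPHB3, JUNB, RUBCNL, APOLD1, ENSG00000231393 and AHSA2P were chosen for naming after their values were seen.

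**Figure D5:**
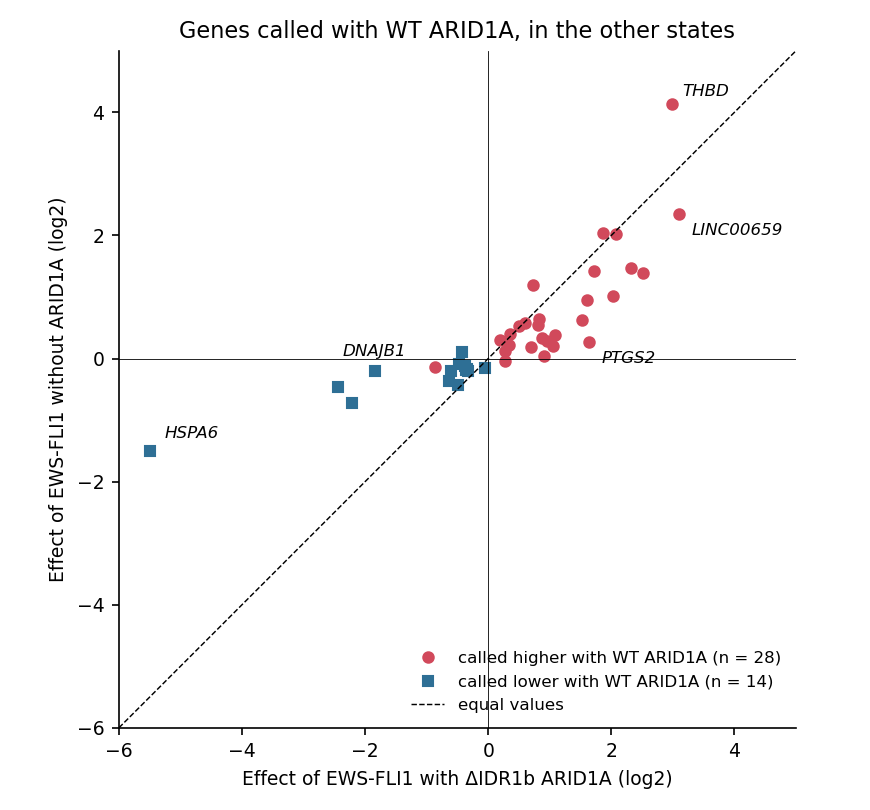
Log2 effect of EWS-FLI1 with ΔIDR1b (horizontal) and without ARID1A (vertical) for the 28 genes called higher (red circles) and the 14 called lower (blue squares) with WT ARID1A, with a dashed line of equal values. Of the red circles 21 lie below the line, and 13 of the blue squares lie above it, HSPA6 and DNAJB1 among them.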

How the data were processed

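Counts of read pairs per gene name were deposited by the authors without normalization. Per the file headers, featureCounts 2.0.1 assigned them to GENCODE release 41 exons (GRCh38) where both ends aligned, with no strand option, so sense and antisense genes cannot be told apart. STAR, SAMtools and edgeR are named in the submitters' processing notes, with versions not given in the sources used here. Genes passing filterByExpr (minimum count 10, total 15) entered a quasi-likelihood model of all 12 libraries in edgeR 4.0.16 (R 4.3.3, limma 3.58.1), with 1 mean per group and TMM scaling. The 8 libraries with ARID1A entered the comparison through the estimate of spread. Contrasts were tested 2-sided with Benjamini-Hochberg adjustment over 20377 genes, and genes were called under 0.05. The standard error is the log2 fold change over the square root of F. Low or zero counts were compared with a floor of 3 counts.

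Named were the introduced genes, every called gene, the next 10 per direction with at least 1 CPM and no overlap, and 2 members per list with the smallest p. Genes read from the other states' calls were picked later. The comparison, members and lists were chosen with earlier results of these data known. Differences between repeats 1 and 2 correlated at 0.104 to 0.194 among the empty vector groups (10695 genes) and at 0.153 to 0.412 among the EWS-FLI1 groups. Between an empty vector group and an EWS-FLI1 group they correlated at -0.223 to -0.00785, with -0.04 for the 2 groups compared. The repeat numbers thus went together within a vector. Across vectors no positive correlation was seen, and that of the 2 groups compared was slight. Exon overlap was taken from the deposited coordinates, and the pseudogene was aligned with blastn 2.17.0 to GENCODE release 29 transcripts. DESeq2 1.42.0, other scalings, filters, left-out libraries, repeat blocks and removal of length and GC trends were the alternatives.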

Additional observations from a re-analysis of the deposited data

Results flagged for a closer look

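These 9 results stood out because the effect of EWS-FLI1 differed between an ARID1A state and the cells without ARID1A by the test of the difference itself, edgeR's interaction term with Benjamini-Hochberg adjustment. With WT ARID1A the difference in log2 effect was -4.15 for HSPA6, -1.95 for DNAJB1, -1.61 for HSPA1B, 1.25 for PTGS2 and 0.82 for EWSR1. With ΔIDR1b it was -4.01 for HSPA6, -1.64 for DNAJB1, -1.98 for HSPA1B and 1.36 for PTGS2. EWSR1 counts include the plasmid. No explanation was weighed.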

How the results depend on the processing

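No called gene, and no called interaction, changed its direction in the 22 alternatives. The uncalled difference of ARID1A turned to -0.04 without the second empty vector library, from 0.03. The 9 genes called without ARID1A became 16 with no filter on low counts, 16 with only the libraries compared, 16 (11 higher, 5 lower) with length and GC trends removed, 17 with the replicate block within each vector, and 17 with only the libraries compared and the replicate block, the last chosen after seeing the data. All 9 genes were shared in these fits except that 7 were shared where only the 4 libraries were fitted. With the repeat number as 1 block over all groups, and with RLE or upper-quartile scaling, the count stayed at 9, and DESeq2 called 9, of which 8 were shared. Leaving out 1 library gave 5 (without EWS-FLI1 replicate 2) to 15 (without either WT ARID1A library with EWS-FLI1). The 5 interaction calls with WT became 16 with the block within each vector, and 5 to 48 without 1 library, 48 without WT ARID1A with EWS-FLI1 replicate 1 and 8 without empty vector replicate 1. The 4 interaction calls with ΔIDR1b ranged from 3 to 6. The 5 called list members became 8 with the block within each vector and 8 with trends removed, and 2 to 6 without 1 library (3 without either empty vector library, 2 without EWS-FLI1 replicate 2). The cause of these changes was not tested. With 2 libraries per group, differences of the size of the standard errors given were not detectable, nor were levels under the floor of 3 counts.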
